A study of Homo sapiens with 8 samples.

Results

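The keratin gene family was taken as every listed gene whose name is KRT plus a number and at most 1 of the letters A to C, which leaves out pseudogenes and keratin-associated proteins. This gave 56 of the 48162 listed genes, 30 of them type I and 26 type II. RNA sequencing had been run on KYSE70 and KYSE450, 2 human cell lines of esophageal squamous cell carcinoma, in a study of the long noncoding RNA NMR. The 8 libraries form 4 groups, each with 1 library per line. NMR overexpression came from a pcDNA3.1 plasmid delivered by lipid transfection, and its control came from the same plasmid arm. NMR knockdown came from lentivirus that was produced in HEK 293T packaging cells and, by the titles, carried an shRNA, and its control came from the same lentiviral arm. All cells were at passages 5 to 10. The labels do not name a selection step, a time of harvest, or whether a clone or a pool was used. No listed gene carries the name NMR, so neither manipulation was checked on its target.

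Keratins build the intermediate filaments of epithelial cells, and every filament pairs an acidic type I chain with a basic type II chain. In stratified squamous epithelium such as that of the esophagus, basal cells are known for KRT5 with KRT14 and KRT15, and cells that leave the basal layer switch to KRT4 with KRT13. KRT6A, KRT16 and KRT17 are known as stress keratins of wounded or fast-growing epithelium, KRT8 with KRT18 mark simple epithelia and are common in carcinomas, and a large remainder belongs to hair and its root sheath.

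Values are FPKM, reads divided by gene length and by the depth of the library, as the authors deposited them. Recovered reads numbered 26401805 to 37937856 per library, so that 1 read in a gene of 1 kb was worth 0.0264 to 0.0379 FPKM. The summed FPKM of 6 squamous markers (TP63, SOX2, DSG3, PKP1, SERPINB5 and PAX9) was 582 to 722 in KYSE70 and 845 to 1202 in KYSE450. In the limma comparisons used below, 3 of the 6 (PAX9, PKP1 and DSG3) passed lower in KYSE70, where 25.6% of all genes did. TP63 passed higher in the lentiviral libraries (0.87, limma adjusted p = 0.0256), where 10.0% of all genes did. Summed columnar markers reached 0.870 to 1.97 FPKM, leukocyte markers 0.169 to 1.39, endothelial markers 0.742 to 4.29, packaging cell markers 0.426 to 3.54 and fibroblast markers 27.1 to 52.3 FPKM. Most of the fibroblast sum was COL1A1, COL3A1 was highest in the KYSE70 knockdown library at 21.9 FPKM, and DCN stayed at or under 0.0336 FPKM. The KYSE70 knockdown library stood apart in its mitochondrial transcripts, at 8.63% of its summed FPKM against 3.84% to 5.75% in the other 7 libraries. Separate cultures for the libraries of a line are not mentioned in the labels, and the p-values below therefore describe the scatter of these libraries alone, which may be technical. In the comparisons of lines and of arms, that scatter also holds differences between the groups, because the libraries of a line differ in treatment or arm. In bulk RNA, fewer cells that use a keratin and less RNA per cell cannot be told apart.

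A small part of the family carried nearly all keratin RNA. A mean of at least 1 FPKM over the 8 libraries was reached by 12 keratins, 7 of type I (KRT10, KRT13, KRT14, KRT15, KRT16, KRT17 and KRT18) and 5 of type II (KRT4, KRT5, KRT6A, KRT8 and KRT80). The other 44 rows stayed under that mean, 36 of them under 1 FPKM in every library, and 4 of those 36 were listed at 0 throughout. The 26 genes of hair and root sheath, 17 and 9 of them, never exceeded 1.19 FPKM. KRT5, the type II keratin of basal cells, held the highest value of all listed genes in the 4 plasmid libraries and in the KYSE450 knockdown library, and ranked between 5 and 7 in the remaining 3. KRT6A ranked between 7 and 16. Such ranks between genes depend on the gene length behind the FPKM. That length was 985 bases for KRT5 and 915 for KRT6A, against longest transcripts of 2531 and 2310.

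**Figure D1:**
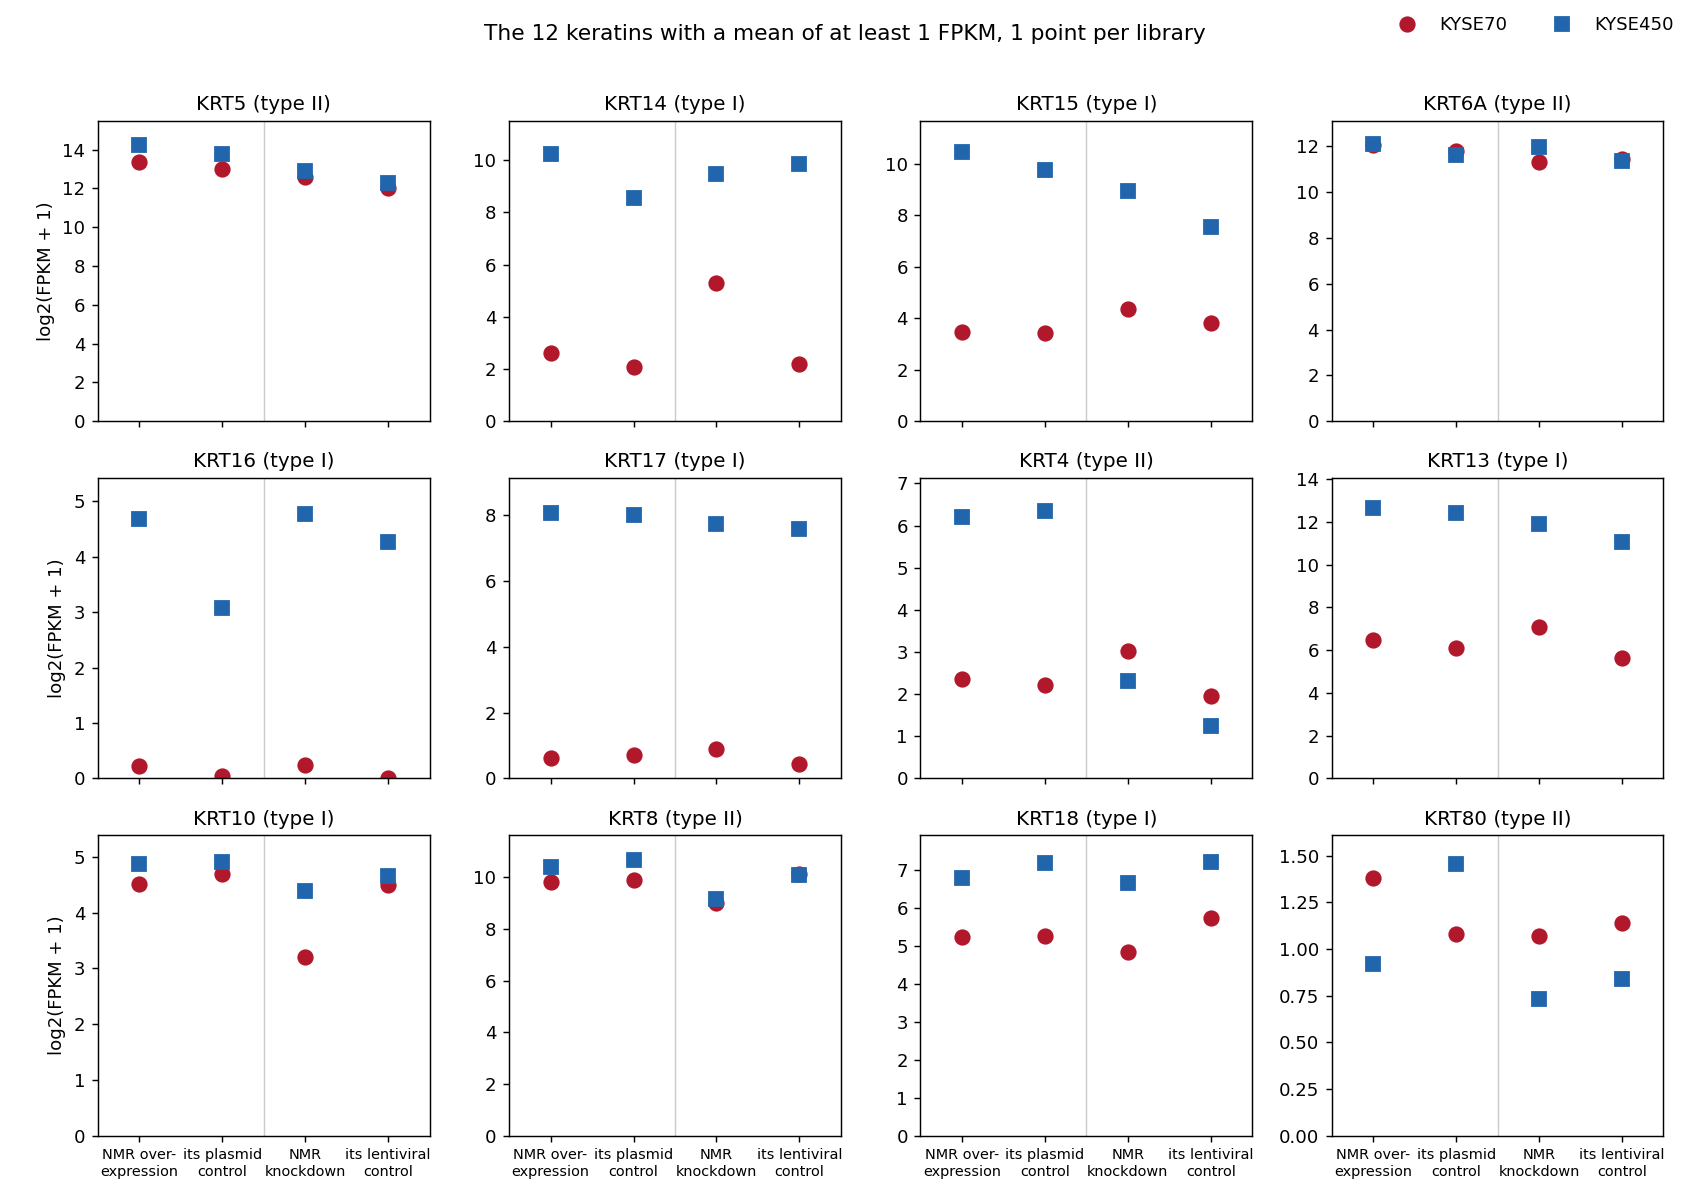
FPKM of the 12 keratins with a mean of at least 1 FPKM, as log2(FPKM + 1), with 1 point per library and a separate vertical scale from 0 in each panel. Red circles are KYSE70 and blue squares KYSE450, and the line in each panel parts the plasmid libraries on the left from the lentiviral libraries on the right. KRT13 to KRT18 show both lines apart, KRT5 and KRT6A show them close, and KRT4 is lower in the lentiviral libraries of KYSE450.

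Keratins made up 2.12% and 1.69% of the summed FPKM in the KYSE70 overexpression and plasmid control libraries, and 1.34% and 1.11% in the KYSE70 knockdown and lentiviral control libraries. In KYSE450 the shares were 4.51% and 3.44% in the overexpression and plasmid control libraries and 2.30% and 1.61% in the knockdown and lentiviral control libraries. Each treated library was above its own control, each plasmid library was above each lentiviral one of its line, and KYSE450 was above KYSE70 in every group.

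The balance of the 2 chain types separated the lines. Type I keratins held 1.03%, 1.14%, 2.45% and 1.74% of keratin FPKM in KYSE70, in the order overexpression, plasmid control, knockdown and lentiviral control. In KYSE450 they held 27.4%, 27.4%, 30.4% and 29.5% in the same order. Type II over type I came to 39.9 to 95.9 in KYSE70 and 2.29 to 2.65 in KYSE450. The unit affects such ratios between genes. The gene length behind the deposited FPKM matched the mean of a gene's annotated transcripts within 5% for 61.2% of 6521 well-covered genes and the longest transcript for 3.74%, and for KRT5 it was 985 bases against a longest transcript of 2531. Rescaled to the longest coding transcript, type II over type I was 23.8 to 53.7 in KYSE70 and 1.42 to 1.67 in KYSE450. The protein chains were not measured, so these RNA ratios do not give their balance.

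**Figure D2:**
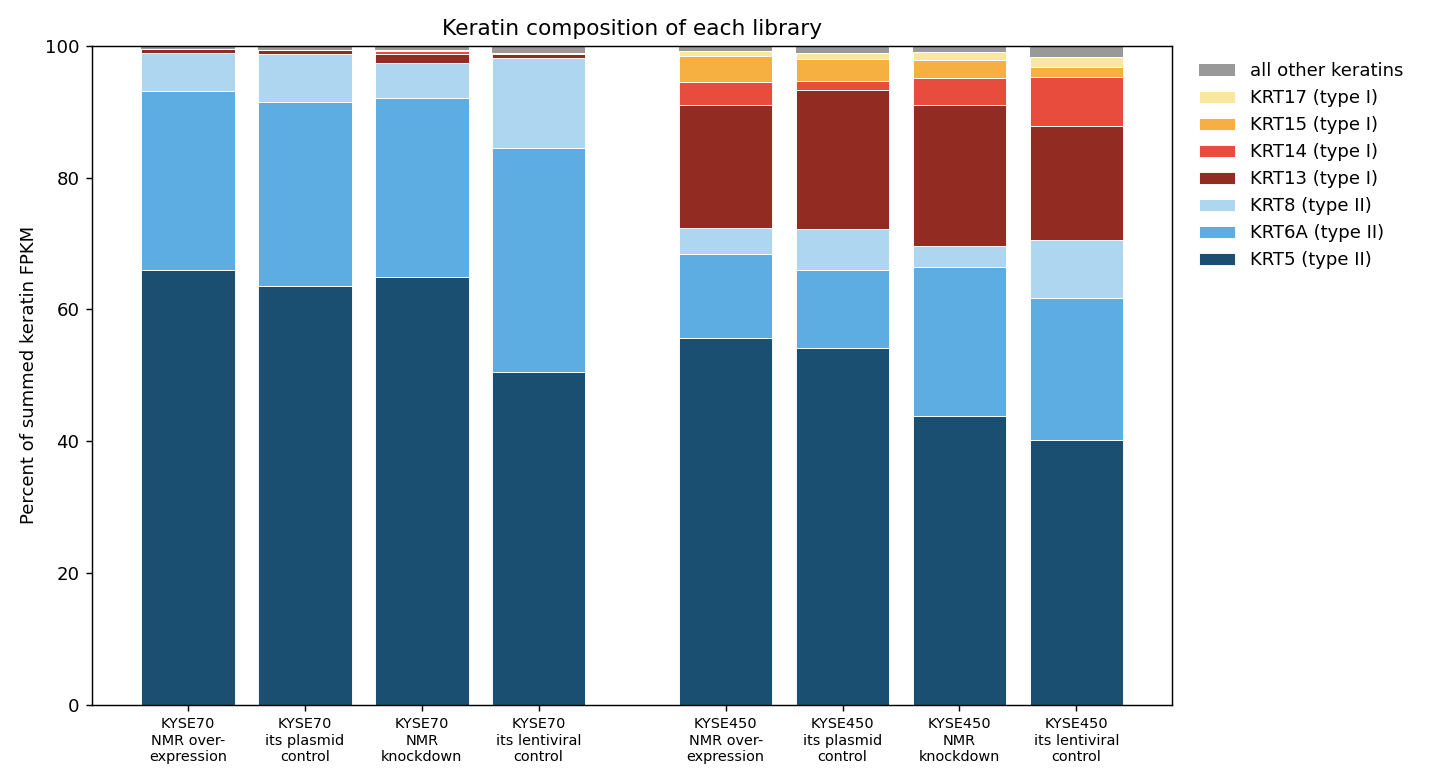
Keratin composition of each library, in percent of its summed keratin FPKM (vertical axis), with 1 bar per library, KYSE70 on the left and KYSE450 on the right. Blue segments are the type II keratins KRT5, KRT6A and KRT8, red to yellow segments the type I keratins KRT13, KRT14, KRT15 and KRT17, and grey all other keratins. The 4 type I segments together take 0.637% to 2.03% of the KYSE70 bars and 26.7% to 29.5% of the KYSE450 bars.

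By class, basal keratins held 66.0%, 63.6%, 65.5% and 50.7% of keratin FPKM in KYSE70 and 63.3%, 58.9%, 50.6% and 49.2% in KYSE450, again in the order overexpression, plasmid control, knockdown and lentiviral control. Stress keratins, almost wholly KRT6A, held 27.2%, 27.9%, 27.2% and 33.9% in KYSE70 and 13.6%, 12.9%, 23.9% and 23.1% in KYSE450. Suprabasal keratins, mostly KRT13 with KRT10 behind it in KYSE70 and almost wholly KRT13 in KYSE450, held 0.717%, 0.756%, 1.58% and 0.903% in KYSE70 and 18.9%, 21.4%, 21.7% and 17.6% in KYSE450. Simple keratins held their highest share in the lentiviral control of each line, with 14.3% in KYSE70 and 10.0% in KYSE450, against 3.79% to 7.69% in the other 6 libraries. In summed FPKM they were highest in the lentiviral control in KYSE70 (1176 FPKM) but not in KYSE450. There the plasmid control was highest, at 1779 FPKM against 1232 FPKM in the lentiviral control.

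By GENCODE release 29 on GRCh38, type I genes of this set lie on chromosome 17 and type II genes on chromosome 12, with KRT18 as the type I gene next to KRT8 on chromosome 12 (chr12:52948871-52952901, plus strand). KRT5 spans chr12:52514575-52520687, KRT6A chr12:52487174-52493257, KRT4 chr12:52806549-52814551 and KRT8 chr12:52897187-52949954, all on the minus strand. KRT13 spans chr17:41500981-41505705, KRT15 chr17:41513743-41522529, KRT14 chr17:41582279-41586921, KRT16 chr17:41609778-41615899 and KRT17 chr17:41619441-41624842, all on the minus strand.

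RefSeq (GRCh38.p14) gave 250 bases before the start site for 34 keratin names, among them KRT4, KRT5, KRT8 and KRT10 of the 12 above the filter. The promoters of KRT5, KRT4 and KRT8, type II genes of chromosome 12, are shown. Their fitted lentiviral-minus-plasmid differences were all below 0, at -1.15, -2.14 and -0.61, and only that of KRT5 had a limma adjusted p under 0.05. This direction does not mark these 3, since 10 of the 12 keratins lay below 0. KRT10, whose promoter is not shown, was at -0.55. All are on the minus strand, at chr12:52520395-52520644 for KRT5, chr12:52814117-52814366 for KRT4 and chr12:52926470-52926719 for KRT8. Capitals mark TATAA or its variant ATAAAA.
KRT5: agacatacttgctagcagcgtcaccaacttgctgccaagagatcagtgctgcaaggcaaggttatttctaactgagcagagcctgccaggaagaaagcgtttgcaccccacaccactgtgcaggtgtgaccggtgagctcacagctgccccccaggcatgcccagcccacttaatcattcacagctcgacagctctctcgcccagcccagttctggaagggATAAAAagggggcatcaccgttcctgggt
KRT4: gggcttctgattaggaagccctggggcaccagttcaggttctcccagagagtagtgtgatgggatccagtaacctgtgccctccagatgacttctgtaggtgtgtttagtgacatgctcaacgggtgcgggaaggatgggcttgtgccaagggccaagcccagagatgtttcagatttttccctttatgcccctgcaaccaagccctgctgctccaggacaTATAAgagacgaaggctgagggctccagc
KRT8: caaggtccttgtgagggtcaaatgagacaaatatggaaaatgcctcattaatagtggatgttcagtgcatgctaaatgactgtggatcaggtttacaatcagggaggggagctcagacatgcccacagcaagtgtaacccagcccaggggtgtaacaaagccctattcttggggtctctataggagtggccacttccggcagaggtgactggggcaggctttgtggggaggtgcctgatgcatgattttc
The KRT5 and KRT4 matches each begin 29 bases before the start site, and the KRT8 window held no match. That window belongs to 1 start site well inside the KRT8 span given above, a gene with 17 annotated transcripts, and other KRT8 start sites were not searched. Searched on both strands, TATAA occurs in 18.9% and ATAAAA in 14.8% of all 35116 promoters of this length in the table, TGANTCA in 6.57% and GGGCGG in 42.6%. Neither TGANTCA nor GGGCGG occurs in the 3 windows shown. A match is a description of letters and not a binding site.

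The comparison of KYSE70 with KYSE450 asks how the keratin sets of the lines differ, with the 4 libraries of a line, 1 from each group, as its replicates. By limma on log2(FPKM + 1), 6 of the 12 keratins were lower in KYSE70 and none was higher at an adjusted p under 0.05. Over the 14311 genes tested the background was 50.3% called in either direction, 25.6% lower and 24.7% higher. All 6 were type I, KRT13, KRT14, KRT15, KRT16, KRT17 and KRT18, which leaves KRT10 as the type I keratin that did not pass, while none of the 5 type II keratins passed. Among these, KRT4 had a fitted difference of -1.64 (SE 1.06, limma adjusted p = 0.226). Its KYSE70 level was 5.71% and 4.51% of the KYSE450 level in the overexpression and plasmid control groups. In the knockdown and lentiviral control groups it was 179% and 213%. The 6 type I keratins that passed had no overlap between the lines, where the background without overlap was 24.5% lower and 24.1% higher in KYSE70. The median fitted difference was -1.67 over the 12 keratins and -0.02 over all genes. KRT16 and KRT17 averaged 0.0956 and 0.597 FPKM in KYSE70 and passed the filter only through KYSE450, so neither could be called higher. Without the filter, 8 of 52 keratins were lower in KYSE70 and 1 was higher, among 8779 of 35668 genes called.

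Among the basal keratins, KRT14, the usual partner of KRT5, had 5.08, 3.20, 38.3 and 3.57 FPKM in KYSE70 and 1211, 371, 707.5 and 921 FPKM in KYSE450, in the order overexpression, plasmid control, knockdown and lentiviral control. The highest KYSE70 library, the knockdown, was below every KYSE450 library. KRT14 averaged 12.5 ± 17.2 FPKM in KYSE70 and 803 ± 354 FPKM in KYSE450 (SD, n = 4 libraries each), 64.0-fold lower in KYSE70, with a fitted log2 difference of -6.48 (SE 0.67, limma adjusted p = 3.61e-05).

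KRT15, a type I keratin of basal and progenitor cells, had 10.1, 9.61, 19.5 and 13.1 FPKM in KYSE70 and 1396, 874, 491 and 185 FPKM in KYSE450, in the same order. The lines did not overlap, and the KYSE450 values spread over a wider range than those of KYSE70. The fitted difference was -5.41 (SE 0.53, limma adjusted p = 2.50e-05), 56.2-fold lower in KYSE70 by the means. KRT5 overlapped between the lines, at 7235 ± 2703 FPKM in KYSE70 and 11541 ± 6445 FPKM in KYSE450 (SD, n = 4 each). Its fitted difference of -0.57 had a 95% confidence interval of -1.56 to 0.43 (limma adjusted p = 0.317).

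Of the stress keratins, KRT17 had 0.535, 0.638, 0.873 and 0.341 FPKM in KYSE70 and 264, 254, 210.4 and 189.9 FPKM in KYSE450, in the same order of groups. These rest on 9 to 23 recovered reads per KYSE70 library and 6128 to 7696 per KYSE450 library. KRT17 had the largest fitted difference between the lines among the 12 keratins, -7.17 (SE 0.16, limma adjusted p = 4.20e-09), with KYSE70 385-fold lower by the means.

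KRT16 had 0.164, 0.0314, 0.187 and 0 FPKM in KYSE70, from 0 to 5 recovered reads, and 24.7, 7.43, 26.4 and 18.2 FPKM in KYSE450, from 204 to 781 reads. Every KYSE70 library was below every KYSE450 library, and the KYSE450 plasmid control was the lowest of its line. The fitted difference of -4.07 (SE 0.34, limma adjusted p = 7.57e-06) was computed after 1 was added to each FPKM, so that it understates the fold of so low a gene.

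KRT6A, the type II partner of both, had 4321, 3585, 2579.9 and 2790.4 FPKM in KYSE70 and 4398, 3122, 3975 and 2637 FPKM in KYSE450. The lines interleaved, with a fitted difference of -0.09 (95% confidence interval -0.62 to 0.43, limma adjusted p = 0.766). KRT6B and KRT6C, its close copies, stayed under 0.78 FPKM. In the reference transcripts, 39.1% of the 50-base words of KRT6A also occur in another gene, 35.2% in KRT6C. A read within such a word fits more than 1 gene, and how the authors' counting treated such reads was not tested.

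Among the suprabasal keratins, KRT13, the type I keratin of esophageal cells above the basal layer, had 87.7, 68.5, 134 and 49.2 FPKM in KYSE70 and 6433, 5525, 3796 and 2139 FPKM in KYSE450. It averaged 84.9 ± 36.4 FPKM in KYSE70 and 4473 ± 1903 FPKM in KYSE450 (SD, n = 4 each), 52.7-fold lower in KYSE70, with a fitted difference of -5.68 (SE 0.38, limma adjusted p = 1.84e-06). KRT13 ranked 3 and 4 among all genes in the KYSE450 overexpression and plasmid control libraries. KRT10, the type I keratin of cornifying epithelium, overlapped between the lines, with a fitted difference of -0.48 (95% confidence interval -1.16 to 0.21, limma adjusted p = 0.220).

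Of the simple keratins, KRT18 had 36.6, 37.7, 27.6 and 52.0 FPKM in KYSE70 and 109.7, 145, 101 and 147 FPKM in KYSE450, in the order of groups used above. Every KYSE70 library was below every KYSE450 library, 3.27-fold by the means, and the fitted difference was -1.70 (SE 0.20, limma adjusted p = 0.000101). KRT8, the type II partner of KRT18, had 911, 950.4, 509 and 1123 FPKM in KYSE70 and 1338, 1632, 564 and 1082 FPKM in KYSE450, and the lines overlapped (-0.36, 95% confidence interval -1.13 to 0.42, limma adjusted p = 0.417). In the reference transcripts KRT18 shares 21.7% of its 50-base words with other genes and KRT8 22.1%, mostly pseudogenes.

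In relative terms, the KYSE70 level of KRT17 was 0.180% to 0.415% of the KYSE450 level of the same group. KRT14 stood at 0.388% to 5.41%, KRT13 at 1.24% to 3.54% and KRT15 at 0.725% to 7.11%. The part of carry-over between libraries in these low KYSE70 levels was not tested.

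**Figure D3:**
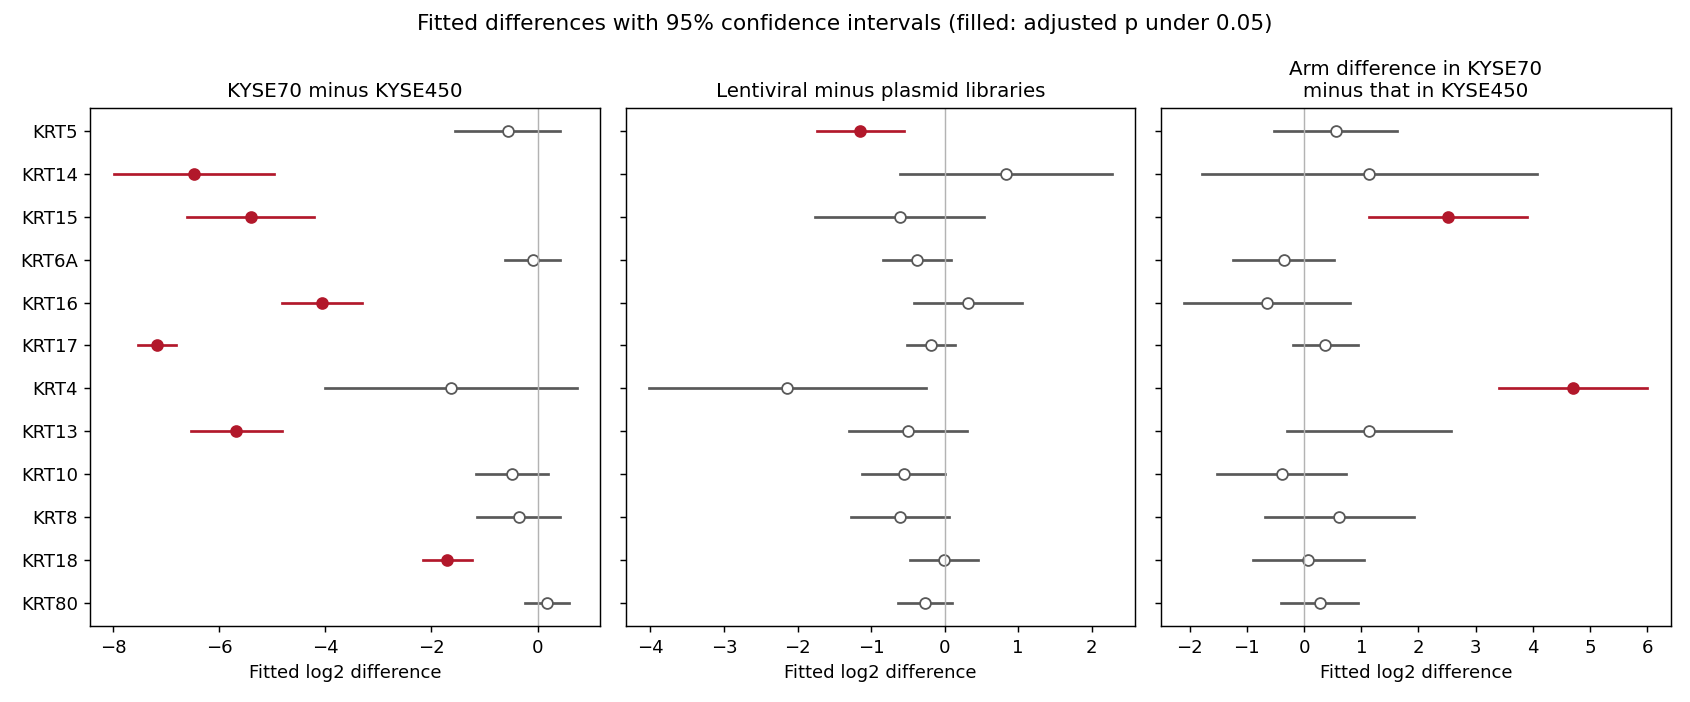
Fitted log2 differences on the log2(FPKM + 1) scale (horizontal axes) with 95% confidence intervals for the 12 keratins (rows), for KYSE70 minus KYSE450, for lentiviral minus plasmid libraries, and for the arm difference in KYSE70 minus that in KYSE450. Filled red points had a limma adjusted p under 0.05: 6 for the lines, all below 0, then KRT5 for the arm, and KRT4 and KRT15 for the difference between the lines.

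The lentiviral libraries (NMR knockdown and its control) were set against the plasmid libraries (NMR overexpression and its control) within lines, which shows how far keratins differed between the arms. Each arm holds 1 treated and 1 control library per line, so over all libraries delivery cannot be told apart from the NMR treatment. Between the controls, delivery cannot be told apart from the vector or from any difference in selection or time of harvest, which the labels do not name. KRT5 fell in the lentiviral libraries and was the 1 keratin of 12 that passed, where 14.4% of all genes did, 4.35% lower and 10.0% higher. In KYSE70, KRT5 had 6154 FPKM in the knockdown and 4156 FPKM in the lentiviral control library, against 10459.5 FPKM in the overexpression and 8172 FPKM in the plasmid control library. In KYSE450 it had 7730.2 and 4948 FPKM in the knockdown and lentiviral control libraries, against 19246 and 14239 FPKM in the overexpression and plasmid control libraries. The arms did not overlap in either line. The fitted difference was -1.15 (SE 0.26, limma adjusted p = 0.0237), and by the means KRT5 was 1.81-fold lower in KYSE70 and 2.64-fold lower in KYSE450. With the 4 control libraries alone it was -1.25 (limma adjusted p = 0.0541), and over all alternatives its adjusted p ran from 0.00942 to 0.273.

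The other keratins mostly lay below 0 as well without passing. Of the 12 fitted differences, 10 were below 0, with a median of -0.44 against 0.07 over all genes. Without overlap between the arms, KRT5, KRT6A and KRT10 were lower in the lentiviral libraries of KYSE70 (background 21.5%) and KRT15 was higher (background 42.7%). In KYSE450, 8 keratins were lower without overlap (KRT4, KRT5, KRT8, KRT10, KRT13, KRT15, KRT17 and KRT80; background 32.3%) and none was higher (background 35.2%). KRT5 and KRT10 were lower without overlap in both lines, where the background was 10.6%, and none was higher in both, where it was 20.0%. KRT10 had a fitted difference of -0.55 (SE 0.25, limma adjusted p = 0.156) and KRT8 of -0.61 (SE 0.29, limma adjusted p = 0.182).

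KRT4 was the keratin whose arm difference differed most between the lines. In KYSE70, KRT4, the type II keratin of esophageal suprabasal cells, had 7.12 and 2.89 FPKM in the knockdown and lentiviral control libraries, against 4.12 and 3.62 FPKM in the overexpression and plasmid control libraries. In KYSE450 it had 3.98 and 1.36 FPKM in the knockdown and lentiviral control libraries, against 72.1 and 80.1 FPKM in the overexpression and plasmid control libraries. The arms of KYSE70 overlapped, while the KYSE450 lentiviral libraries were 28.5-fold lower by the means, and 58.9-fold lower between the controls. The arm difference in KYSE70 minus that in KYSE450 was 4.70 (SE 0.57, limma adjusted p = 0.00849, range over the alternatives 0.000624 to 0.0591). Recovered reads of KRT4 in KYSE450 numbered 178 and 79 in the knockdown and lentiviral control libraries, against 3227 and 3320 in the overexpression and plasmid control libraries. KRT4 shares no 50-base word with another gene.

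KRT15 was the other keratin with such a difference, at 2.52 (SE 0.60, limma adjusted p = 0.0461). In KYSE70 it had 19.5 and 13.1 FPKM in the knockdown and lentiviral control libraries, against 10.1 and 9.61 FPKM in the overexpression and plasmid control libraries. In KYSE450 it had 491 and 185 FPKM in the knockdown and lentiviral control libraries, against 1396 and 874 FPKM in the overexpression and plasmid control libraries. KRT15 was thus higher without overlap in the lentiviral libraries of KYSE70 and lower without overlap in those of KYSE450. These 2 calls compare with 6.88% of all genes called, 5.28% higher and 1.60% lower. The median of all genes for this comparison was 0.12, and median-ratio scaling moved it to -0.05. Relative to that median, KRT4 was at 4.58 with either scaling, and KRT15 at 2.40 as deposited and 2.38 after scaling, where its limma adjusted p was 0.0539 (range over the alternatives 0.0131 to 0.193). KRT13, the partner of KRT4, had 3796 and 2139 FPKM in the KYSE450 knockdown and lentiviral control libraries, against 6433 and 5525 FPKM in the overexpression and plasmid control libraries, and its difference between the lines was 1.13 (SE 0.63, limma adjusted p = 0.275).

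NMR overexpression was compared with its plasmid control, pair by pair within lines. No keratin passed the test, nor did any of the 14311 genes (0%) by limma, while 148 genes and 1 keratin, KRT16, had an unadjusted p under 0.05, and limma's voom on recovered reads also called 0 genes. In direction, 6 of the 12 keratins were higher with overexpression in both lines (KRT5, KRT6A, KRT13, KRT14, KRT15 and KRT16; background 23.0%) and 3 were lower in both (KRT8, KRT10 and KRT18; background 27.6%).

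KRT5 stood at a fitted 0.40 (SE 0.29), with 0.36 in the KYSE70 pair and 0.43 in the KYSE450 pair. KRT14 had 5.08 FPKM in the overexpression against 3.20 FPKM in the plasmid control library of KYSE70, and 1211 against 371 FPKM in KYSE450. Its fitted change was 1.12 (SE 0.71, limma adjusted p = 0.9998). KRT16 had 5 reads in the overexpression against 1 read in the plasmid control library of KYSE70, and 24.7 against 7.43 FPKM in KYSE450, with a fitted change of 0.89 (SE 0.32, limma adjusted p = 0.9998). Both pairs of KRT14 and of KRT16 were above 0, with the larger difference in KYSE450. In the reference transcripts, 11.2% of the 50-base words of KRT14 occur in KRT16, so a read within such a word fits both genes. How such reads were counted was not tested. A fit of the 4 plasmid libraries alone called KRT14 (limma adjusted p = 0.0406), which over all alternatives ran from 0.0368 to 1.

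NMR knockdown was compared with its lentiviral control in the same way. No keratin and no gene of the 14311 (0%) passed by limma, while 1794 genes and 6 keratins had an unadjusted p under 0.05, and limma's voom on recovered reads called 4 genes, none a keratin. In direction, 6 keratins were higher with knockdown in both lines (KRT4, KRT5, KRT13, KRT15, KRT16 and KRT17; background 27.1%) and 4 were lower in both (KRT8, KRT10, KRT18 and KRT80; background 25.9%). With trends on GC content and transcript length removed, KRT80 in the KYSE70 knockdown pair turned to 0.14 from -0.07, and KRT6A to 0.17 from -0.11.

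The esophageal suprabasal pair stood higher with knockdown in both lines without passing. KRT4 had 7.12 FPKM in the knockdown against 2.89 FPKM in the control library of KYSE70, and 3.98 against 1.36 FPKM in KYSE450, with a fitted change of 1.07 (SE 0.16, limma adjusted p = 0.199). KRT13 had 134 against 49.2 FPKM in KYSE70 and 3796 against 2139 FPKM in KYSE450, with a fitted change of 1.13 (SE 0.20, limma adjusted p = 0.247). For KRT4 in KYSE450, both lentiviral libraries were far under both plasmid libraries, so the knockdown library was above its own control and below the others.

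The simple keratins stood lower with knockdown in both lines, again without passing. KRT8 had 509 FPKM in the knockdown against 1123 FPKM in the control library of KYSE70, and 564 against 1082 FPKM in KYSE450, with a fitted change of -1.04 (SE 0.19, limma adjusted p = 0.250). KRT18 had 27.6 against 52.0 FPKM in KYSE70 and 101 against 147 FPKM in KYSE450, with a fitted change of -0.71 (SE 0.16, limma adjusted p = 0.279). Both chains of this pair were lower in the knockdown library of each line. KRT10 had 8.24 FPKM in the KYSE70 knockdown library and 19.98 FPKM in the KYSE450 knockdown library, against 21.4 and 24.1 FPKM in their controls (-0.77, SE 0.24, limma adjusted p = 0.339). Removal of trends on GC content and transcript length moved all 12 keratin changes of the KYSE70 knockdown pair upward. It brought KRT8 to -0.90 from -1.14, KRT18 to -0.58 from -0.89 and KRT10 to -1.07 from -1.28, and KRT13 to 1.80 from 1.43, KRT4 to 1.32 from 1.06, KRT5 to 0.84 from 0.57 and KRT14 to 3.55 from 3.10. The part of the high mitochondrial share of the KYSE70 knockdown library in these changes was not tested.

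Among the basal keratins, KRT14 split by line. It had 38.3 FPKM in the knockdown against 3.57 FPKM in the control library of KYSE70, from 1157 and 108 recovered reads, and 707.5 against 921 FPKM in KYSE450. The pair changes were 3.10 in KYSE70 and -0.38 in KYSE450, and the fitted change was 1.36 (SE 0.71, limma adjusted p = 0.441). The pseudogene KRT16P2, which shares 4.40% of the 50-base words of KRT14, had 15.4 FPKM in the KYSE70 knockdown and 7.58 FPKM in its control library, against 0.0733 to 0.789 FPKM in the other 6 libraries, and its part in the KRT14 value was not tested. KRT15 had a fitted change of 0.97 (SE 0.24, limma adjusted p = 0.293) and KRT5 of 0.60 (SE 0.29, limma adjusted p = 0.427), both higher in both lines.

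**Figure D4:**
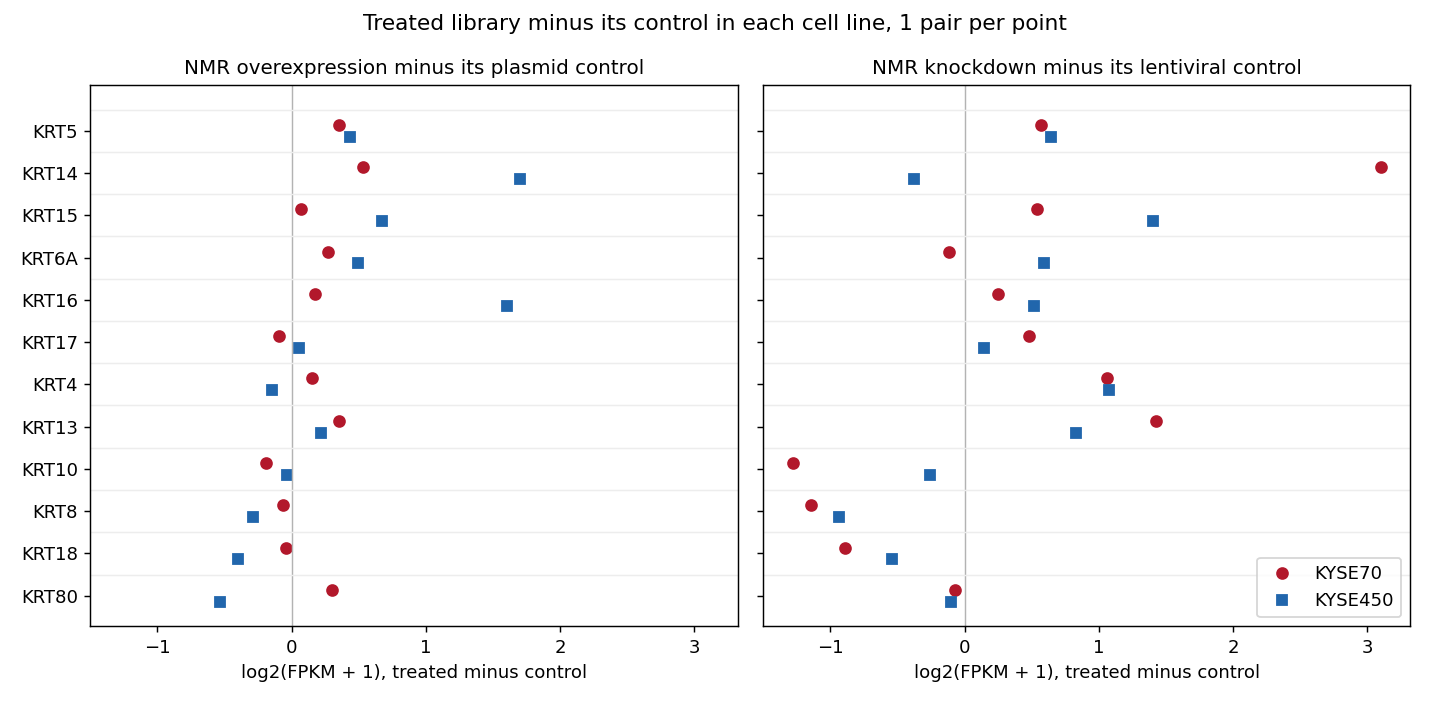
Treated library minus its own control on the log2(FPKM + 1) scale (horizontal axis) for the 12 keratins (rows), NMR overexpression on the left and NMR knockdown on the right, with 1 point per line, red circles for KYSE70 and blue squares for KYSE450. KRT5, KRT13, KRT15 and KRT16 lie above 0 in all 4 pairs and KRT8, KRT10 and KRT18 below 0 in all 4, and KRT14 has its highest point, 3.10, in the KYSE70 knockdown pair.

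The knockdown result depends on the estimate of the spread. With either KYSE450 lentiviral library left out, 8 keratins passed among 4832 or 4833 genes, and with either KYSE70 lentiviral library left out, 5 passed among 582 or 580 genes. The 1 knockdown pair left in each such fit borrows its spread from the pairs of the overexpression arm.

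Over both manipulations, 7 keratins had the same direction in every pair. KRT5, KRT13, KRT15 and KRT16 were above their control in all 4 pairs, 4 of 12 keratins where the background was 7.34%, and KRT8, KRT10 and KRT18 were below it in all 4 pairs, 3 of 12 where the background was 8.15%. For KRT16 in KYSE70 the directions rest on 5 against 1 and 5 against 0 reads. Changes near 0 count too, as for KRT15 (0.07), KRT8 (-0.06) and KRT18 (-0.04) in the KYSE70 overexpression pair. The fitted changes of KRT5 were 0.40 with overexpression and 0.60 with knockdown, those of KRT13 were 0.29 and 1.13, those of KRT8 were -0.17 and -1.04 and those of KRT18 were -0.22 and -0.71. None passed in either comparison.

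Of the 44 keratins under a mean of 1 FPKM, 8 rows reached 1 FPKM in a library. KRT1, a type II keratin of cornifying epithelium, had 3.71 FPKM in the KYSE450 overexpression and 0.757 FPKM in the KYSE450 plasmid control library, from 164 and 31 reads, against at most 0.158 FPKM in the other 6 libraries. KRT7, a type II keratin of simple epithelium, had 1.16 FPKM in the KYSE450 knockdown and 2.13 FPKM in its control library, and at most 0.358 FPKM elsewhere. KRT19, a type I keratin of simple epithelium, reached 1.38 FPKM in the KYSE450 overexpression library. In KYSE70, KRT78 reached 1.62 FPKM in the lentiviral control library, KRT32, a hair keratin, 1.19 FPKM and KRT74 1.03 FPKM in the knockdown library, and KRT75, a keratin of the hair follicle's companion layer, 1.03 FPKM in the overexpression library. KRT75 had 0.191 to 1.03 FPKM in KYSE70 and 0 to 0.0294 FPKM in KYSE450, from 14 to 72 reads and 0 to 2 reads. The eighth row carries the name KRT222 and reached 1.19 FPKM, but by GENCODE release 29 its identifier is a readthrough gene (AC073508.2) that shares 74.6% of its 50-base words with SMARCE1, and the identifier of KRT222 itself was listed at 0 in all 8 libraries. KRT80, a type II keratin above the filter, had 0.663 to 1.74 FPKM over all libraries and passed in no comparison.

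Keratin filaments attach to desmosomes, hemidesmosomes and linker proteins. The 14 genes called anchors here stand for these sites but also take in FLG, whose product is not such a site. All 14 were above the filter. Between the lines 4 anchors passed higher in KYSE70 and 3 lower, a share like that of all genes (24.7% higher and 25.6% lower), among them JUP, encoding plakoglobin of the desmosome, at -1.59 (SE 0.14, limma adjusted p = 1.20e-05), DST, whose epithelial isoform anchors keratin at the hemidesmosome, at 1.37 (SE 0.15, limma adjusted p = 5.22e-05), and the filaggrin gene FLG at 3.66 (SE 0.53, limma adjusted p = 0.000328). Between the arms, envoplakin (EVPL) fell by 0.58 (SE 0.15, limma adjusted p = 0.0355) and MACF1 rose by 0.44 (SE 0.13, limma adjusted p = 0.0494) in the lentiviral libraries, where 14.4% of all genes passed. No anchor passed with overexpression or knockdown, and 1, periplakin (PPL), differed in its arm difference between the lines (1.26, SE 0.19, limma adjusted p = 0.0157). JUP, PKP3 and PLEC had the highest means of the 14, with 301, 219.6 and 167 FPKM.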

How the data were processed

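Total RNA was sequenced in 8 libraries. The values are FPKM as the authors deposited them, a unit read from the values because no header names it. Per the submitters' processing notes, TopHat2 2.0.9, HTSeq 0.6.1 and the build hg19 were used, with no annotation or strand setting named there. Within each of 30872 genes above 0 in at least 2 libraries, the deposited FPKM values were whole multiples of 1 step, within 0.02, which gave whole reads. Confidence intervals come from the limma fits and so from the scatter between libraries.

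Members were matched by gene name. Members, classes and gene lists were chosen with earlier results of these data known. The 14311 genes whose mean reached 1 FPKM were fitted as log2(FPKM + 1) with limma 3.58.1 (trend) in R 4.3.3, with p-values adjusted by Benjamini and Hochberg over all of them and a threshold of 0.05. The treatment model held 4 pair terms plus overexpression and knockdown terms (2 residual degrees of freedom). Replicate 1 is KYSE70 and replicate 2 is KYSE450 in each group, so that equal numbers pair libraries by line. Lines were compared without covariates, arms with cell line as covariate, and the difference between lines by an interaction term. Directions per pair, shares and ranks are descriptions.

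Keratins with a mean of at least 1 FPKM are given in every library, others that reach 1 FPKM by that value, and the rest by count. From the lists of anchors and of other filaments, the 3 of highest mean and up to 3 of smallest p per comparison are named. Alternatives were a pseudocount of 0.1, no filter or a mean of at least 5 FPKM, median-ratio scaling, voom on recovered reads, removal of GC and length trends by loess (span 0.3), other blocks, other libraries in the fit, and each library left out. Gene lengths, positions and shared 50-base words come from GENCODE release 29, where 45341 of the listed identifiers occur. The fits were also run on simulated data with independent noise in each library. Such data cannot show whether libraries of differing treatment or arm serve as replicates. A planned comparison of keratin protein sequences was not run.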

Additional observations from a re-analysis of the deposited data

Results flagged for a closer look

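KRT14 stood at 38.3 FPKM in the KYSE70 knockdown library, far from the other 3 KYSE70 libraries at 3.20 to 5.08 FPKM. Of 24 sets of 4 libraries (12 keratins in each line), this was the 1 in which a library stood apart by Dixon's criterion, and chance flags about 1 in 20 such sets.

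The lentiviral-minus-plasmid difference in KYSE70 minus that in KYSE450 was 4.70 for KRT4 (limma adjusted p = 0.00849) and 2.52 for KRT15 (limma adjusted p = 0.0461). The KRT4 arms overlapped in KYSE70, and in KYSE450 both lentiviral libraries were below both plasmid libraries. KRT15 was higher in the lentiviral libraries of KYSE70 and lower in those of KYSE450.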

How the results depend on the processing

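Over 24 named keratin changes and 356 alternatives, 299 kept their direction and side of the threshold, 21 lost the call, 32 gained one and 4 reversed. The 6 calls between the lines held under every alternative run, with 6 to 7 keratins called when 1 library was left out. Without a filter 9 of 52 were called, 8 lower and 1 higher in KYSE70, where 8779 of 35668 genes were called. The reversals were KRT6A between the lines, above 0 without overexpression replicate 2 and without knockdown replicate 1 (range with 1 library left out -0.23 to 0.023), and KRT14 with knockdown, below 0 without knockdown replicate 1 or without knockdown control replicate 1 (range -0.38 to 3.10). For overexpression, the count of keratins called was 1 (KRT14) with the 4 libraries of the comparison and the replicate block, and 0 to 1 with 1 library left out. For knockdown it was 0 to 8 with 1 library left out. For the arm it was 0 with no filter, 0 with the 4 control libraries and 0 with no replicate block (KRT5 limma adjusted p = 0.273). With voom it was 2 (KRT4 and KRT5), among 2285 genes of 14311. The arm count was 0 to 4 with 1 library left out (4 without knockdown replicate 1, among 2504 genes of 14311). KRT5 lost its call without overexpression control replicate 2, overexpression replicate 1 or 2, knockdown control replicate 2 or knockdown replicate 2. For the difference in arm between lines the count was 0 with no filter, among 118 genes of 35668. It was 1, KRT4, with a mean of at least 5 FPKM (among 515 genes of 10384). KRT4 was also the 1 with median-ratio scaling (among 945 genes of 14311) and with voom (among 782). As deposited, with all libraries, 984 genes were called. The count moved up and down with 1 library left out, where an arm of a line rests on 1 library. KRT4 lost its call with no filter (limma adjusted p = 0.0531), without overexpression control replicate 1 (0.0516) and without overexpression replicate 2 (0.0591), and KRT15 under 10 of 13 alternatives. The replicate block changed no count for overexpression or knockdown, 0 each without it. Removing GC and length trends left 0 calls for both and turned KRT80 and KRT6A in the KYSE70 knockdown pair. Median-ratio scaling turned none of the 12 keratins in any of the 4 treated-control pairs. In KYSE70, the arm differences of KRT13 and KRT18 turned sign with median-ratio scaling, to -0.14 and -0.18, against 0.07 and 0.03 as deposited. With 1 library per line and group, KRT16 and KRT17 in KYSE70 rest on few reads, and fold changes there are imprecise.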

Other observations

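Of 16 genes of other intermediate filaments, 9 were above the filter. Between the lines 5 passed higher and 1 lower in KYSE70, where 24.7% of all genes passed higher and 25.6% lower. The neurofilament light chain gene NEFL had 251, 255, 119 and 113 FPKM in KYSE70 and 0.209, 0.615, 0.703 and 0.193 FPKM in KYSE450, in the order overexpression, plasmid control, knockdown and lentiviral control. The lines did not overlap, and the fitted difference was 6.93 (SE 0.30, limma adjusted p = 9.66e-08). The neurofilament gene NEFM (2.72, SE 0.32, limma adjusted p = 9.56e-05) and the nestin gene NES (1.35, SE 0.18, limma adjusted p = 0.000221) were higher in KYSE70 too. Vimentin (VIM), the filament of mesenchymal cells, stayed at 0.225 to 1.09 FPKM. LMNA, LMNB2 and LMNB1, the nuclear lamins, had the highest means, at 529, 264 and 121 FPKM. In the lentiviral libraries LMNB1 fell by 0.92 (SE 0.14, limma adjusted p = 0.00877) and LMNB2 by 0.73 (SE 0.15, limma adjusted p = 0.0168). Over all genes 4.35% passed lower between the arms. None of the 9 passed with overexpression or knockdown, and NEFM differed in its arm difference between the lines (1.26, SE 0.26, limma adjusted p = 0.0300).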
